A study of Drosophila melanogaster with 2 samples.

Results

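The nuclear genes of the Drosophila respiratory chain numbered 87 of 13945 protein-coding genes on the 6 chromosome arms, and they were chosen by symbol: ND- for complex I, SdhA to SdhD for complex II, UQCR- for complex III, COX4 to COX8 for complex IV and ATPsyn for complex V. Of these, 63 were main subunits and 24 were paralogs named after a subunit with an added L, such as COX4L after COX4. They were examined in chromatin immunoprecipitation followed by sequencing (ChIP-seq) of whole embryos, where an antibody against GFP recovered DNA bound by Inv-eGFP. Invected (Inv), a transcription factor with a homeodomain, is the close relative of Engrailed encoded next to it. All samples were embryos of the strain inv-GFP, aged 0 to 24 h, which carry an insertion aimed at inv and make the fusion protein. There was 1 group of 2 biological replicates and no second condition. The mixed ages and the whole embryo mean that a peak cannot be assigned to a stage or a cell type.

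Complexes I to IV pass electrons towards oxygen, complexes I, III and IV pump protons across the inner mitochondrial membrane as they do so, and complex V, the ATP synthase, uses the proton gradient to make ATP. Complex II alone is built only from nuclear genes, because a few core subunits of the others are encoded by mitochondrial DNA. The nuclear genes are active in most cells. In flies several subunits also have a second, like-named gene, and many of these duplicates are known for expression in the testis.

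A gene was counted when the summit, the highest point of a peak, lay within 1 kb of one of its own transcription start sites (TSS). In the larger list of peaks called on both replicates together, 31 of 63 main subunit genes (49.2%) had such a summit, against 27.2% of all protein-coding genes. Only 1 of the 24 paralogs had one (4.17%), and all 87 genes together gave 32 (36.8%). Genes are not replicates, so these shares are set beside the share of all genes without a test. At 27 of the 32 genes (84.4%, against 68.4% of all genes with a summit) a different gene also had a TSS within 1 kb of the summit. To which of the neighbouring promoters such a summit belongs cannot be told apart.

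**Figure D1:**
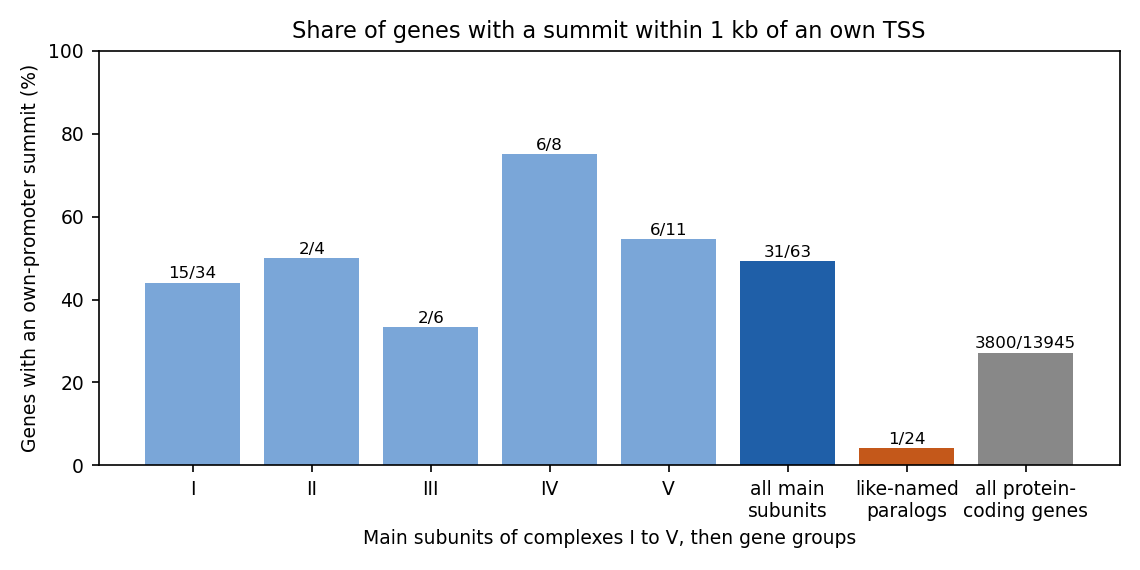
Share of genes with a summit within 1 kb of an own TSS, in percent (vertical axis), for the main subunits of each complex, all main subunits, the like-named paralogs and all protein-coding genes, with the counts above the bars. The main subunits reached 49.2% and the paralogs 4.17%, against 27.2% of all genes.

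The promoters of 6 members are printed here because they show what lay at the summits and what the genes without one had. Each runs to the base before the most upstream TSS and was read 5′ to 3′ on the strand of its gene from the Release 6 (dm6) genome. Capitals mark TATCGA or TCGATA, the word within the DNA replication-related element TATCGATA that the factor DREF binds, and GGTCACACT or its reverse complement, the core of promoter Motif 1. ND-B14.5A is chrX:2172376-2172525 (plus strand), ND-15 is chr2L:114576-114725 (plus), COX4 is chr2L:19958563-19958712 (plus), and ND-SGDH is chr3L:12138585-12138734 (minus). These genes had a summit at 32, 114, 71 and 123 bp upstream of an own TSS. ND-B17 is chr2L:15751079-15751228 (minus) and the paralog ND-B14.5AL is chr3L:22606219-22606368 (plus), and neither had a summit. The examples were chosen after their letters had been seen.
ND-B14.5A: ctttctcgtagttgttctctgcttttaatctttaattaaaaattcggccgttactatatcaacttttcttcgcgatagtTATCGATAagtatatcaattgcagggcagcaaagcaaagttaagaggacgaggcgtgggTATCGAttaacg
ND-15: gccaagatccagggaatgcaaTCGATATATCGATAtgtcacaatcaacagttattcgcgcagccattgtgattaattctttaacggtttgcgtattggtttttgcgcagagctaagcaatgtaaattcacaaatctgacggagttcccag
COX4: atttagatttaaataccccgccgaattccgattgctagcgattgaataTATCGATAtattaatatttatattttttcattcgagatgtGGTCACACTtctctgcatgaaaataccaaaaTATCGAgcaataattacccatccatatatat
ND-SGDH: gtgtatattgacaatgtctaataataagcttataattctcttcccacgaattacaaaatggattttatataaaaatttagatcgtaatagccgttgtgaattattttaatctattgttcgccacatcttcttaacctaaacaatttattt
ND-B17: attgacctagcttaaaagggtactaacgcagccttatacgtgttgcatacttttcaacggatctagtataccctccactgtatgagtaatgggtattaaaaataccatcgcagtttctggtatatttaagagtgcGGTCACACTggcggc
ND-B14.5AL: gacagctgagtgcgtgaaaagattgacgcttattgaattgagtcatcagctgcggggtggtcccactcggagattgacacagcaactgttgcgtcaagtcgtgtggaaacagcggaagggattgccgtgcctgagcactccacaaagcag

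Complex I, the NADH dehydrogenase, had a summit at 15 of its 34 main subunit genes (44.1%, against 27.2% of all genes). The strongest was at ND-SGDH (FBgn0011455, chr3L:12137496-12138584), an accessory subunit gene, whose peak had a pooled signal of 832 in the authors' units. Its signal was 587 in replicate 1 and 229.65 in replicate 2, and the summit lay 123 bp upstream of the TSS, with the TSS of RhoGAP68F 161 bp away on the other side. The signal is a peak height relative to a control on a scale that is not given in the sources used here, so it ranks peaks within a list only. By that rank ND-SGDH stood at 112 of 3393 peaks on the arms.

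ND-24 (FBgn0030853), the homolog of the iron-sulfur subunit NDUFV2, had a pooled signal of 466, with 314 in replicate 1 and 155 in replicate 2. At ND-B14.5A (FBgn0025839), an accessory subunit gene, the values were 416 pooled, 228 in replicate 1 and 187 in replicate 2. Its summit lay 32 bp upstream of the TSS, and no TSS of another gene lay within 1 kb, which was so at 5 of the 32 members with a summit: ND-B14.5A, ND-15, ND-MLRQ, UQCR-14 and COX4. ND-B14.5B reached 367 (259 and 102), but that summit lay 802 bp downstream of its TSS and 133 bp from the TSS of toc. A second, weaker listed summit of ND-B14.5B lay within 100 bp of its own TSS, with no TSS of another gene nearer. ND-ASHI (309) shared its summit with Fum1, the fumarase gene of the citric acid cycle, with the TSS of ND-ASHI 76 bp from it and that of Fum1 88 bp.

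ND-15, ND-23, which is the homolog of the iron-sulfur subunit NDUFS8, ND-B8, ND-MNLL, ND-19, ND-MLRQ, ND-13B and ND-42 followed with pooled signals from 308 down to 117. ND-B15 had 101 pooled, with 49.5 in replicate 1 and 56.8 in replicate 2. ND-B18 had the lowest signal of the complex, 81.0, with 52.6 in replicate 1 and 29.5 in replicate 2. ND-B8, ND-13B, ND-42 and ND-B18 had a listed counterpart in replicate 1 alone, and ND-B15 in replicate 2 alone. Among the genes of the conserved core subunits in the arm of complex I that takes electrons from NADH to ubiquinone, ND-24 and ND-23 thus had summits, while ND-75, ND-51, ND-49, ND-30 and ND-20 had none in the list. That division by role was made after the values had been seen. It covers few genes, and its share with a summit was near the 27.2% of all genes, so it is not read as a difference.

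**Figure D2:**
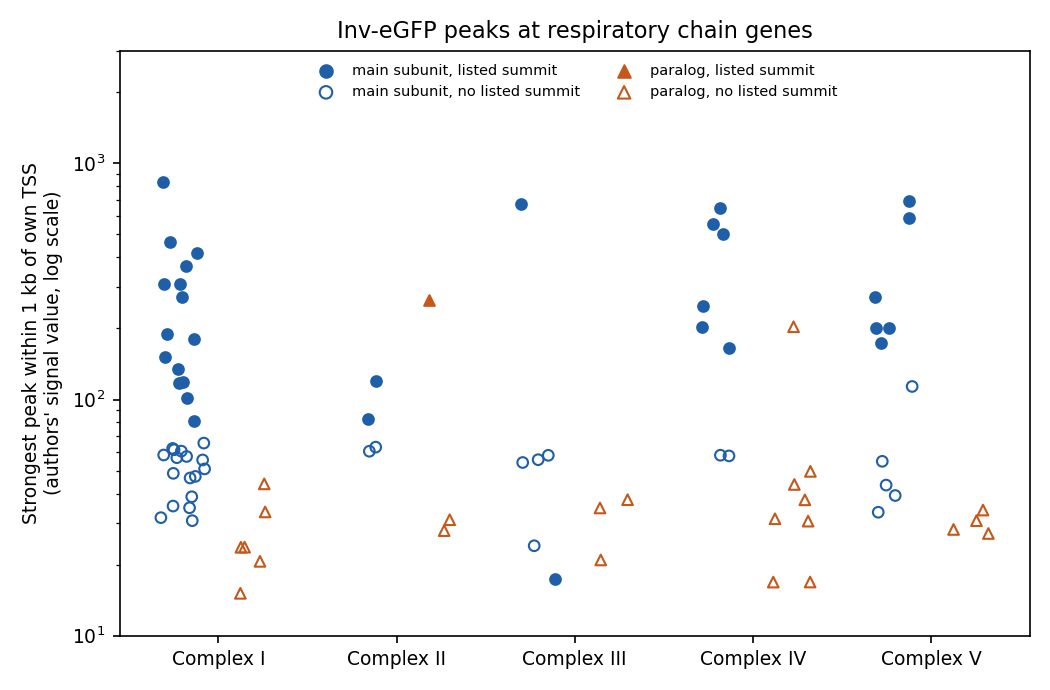
Signal of each member gene (vertical axis, authors' units, log scale) by complex, with main subunits as circles and paralogs as triangles. Filled symbols are genes with a listed summit. Open symbols are genes without one, drawn at their strongest ranked peak within 1 kb, and ND-49 and ND-AGGG are not drawn because they had none. The filled circles run from 17.3 at UQCR-C2 to 832 at ND-SGDH, and SdhBL is the single filled triangle.

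Complex II oxidises succinate and belongs to the citric acid cycle as well as to the chain. Of its 4 main subunit genes, SdhA and SdhC had summits, and SdhB and SdhD did not, where 27.2% of all genes had one. In the smaller conservative list 0 of the 4 had a summit, against 23.1% of all genes. In the upper 50% of peaks by signal it was also 0 of 4, against 18.0%. At SdhA (FBgn0261439), the gene of the flavoprotein subunit, the pooled signal was 120.1, with 107 in replicate 1 and 8.52 in replicate 2. SdhC (FBgn0037873), the gene of a membrane anchor, had 82.8 pooled, 67.6 in replicate 1 and 6.37 in replicate 2, and its summit lay 388 bp upstream of its own TSS but 10 bp from the TSS of Tctp. These replicate 2 signals were the lowest of the 32 members. The replicate 2 peaks that overlapped the pooled ones had a score of 10, where the threshold of the lists was 830. The thresholded list of replicate 2 nevertheless held another summit within 1 kb of the TSS of SdhC, and none at SdhA. The score is the authors' rescaling of the irreproducible discovery rate (IDR), and 830 stands for an IDR of 0.01.

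Complex III passes electrons from ubiquinol to cytochrome c. A summit was found at 2 of its 6 main subunit genes (33.3%, near the 27.2% of all genes). UQCR-14 (FBgn0030733), a small subunit gene on X, had a signal of 672 pooled, 481 in replicate 1 and 189 in replicate 2, 10 bp upstream of the TSS and with no other TSS within 1 kb. UQCR-C2 (FBgn0250814), the gene of a core protein, had the lowest signal of all members at 17.3, and its summit was 960 bp upstream and 136 bp from the TSS of Rpn12, a proteasome gene. The strongest ranked peaks that overlapped it had 79.3 in replicate 1 and 67.2 in replicate 2. The pooled value is that of a summit within 1 kb of the TSS, while the replicate values are those of any overlapping peak. The pooled and replicate values of UQCR-C2 are therefore not compared. By overlap, its value in replicate 2 lay near the members' median of 71.6.

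Complex IV, the cytochrome c oxidase, had summits at 6 of 8 main subunit genes (75.0%, against 27.2% of all genes). This was the largest share among main subunits with the 1 kb rule. With the paralogs complex IV had 6 of 16 (37.5%), below complexes II and V at 3 of 7 and 6 of 15. Counting summits in the gene or within 2 kb, it had 7 of 8 main subunits, against 4 of 4 in complex II and 37.7% of all genes. COX6B (FBgn0031066) had 646 pooled, 517 in replicate 1 and 126 in replicate 2, with its own TSS and that of CG18809 both 48 bp from the summit. COX7B (FBgn0040793) had 556 pooled, 367 in replicate 1 and 198 in replicate 2, and COX7A (FBgn0040529) had 503, 341 and 152 in the same order. The TSS of Sec3 lay 136 bp from the summit at COX7B, and that of Arl2 63 bp from the summit at COX7A. COX7C had 249.67 (167 and 83.8), and that summit lay 281 bp downstream of its TSS and 15 bp from the TSS of oys. COX8 had 203 (158 and 33.1) and was listed in replicate 1 only. COX4 (FBgn0032833), the gene of the largest nuclear subunit of the complex in mammals, had 166 pooled, 119.56 in replicate 1 and 49.8 in replicate 2, from a summit 71 bp upstream of the TSS. COX5A and COX5B were the main subunit genes of complex IV without a summit.

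Complex V had summits at 6 of 11 main subunit genes (54.5%, against 27.2% of all genes). Each of the 6 peaks overlapped a listed peak of both replicates. ATPsynCF6 (FBgn0016119), the gene of coupling factor 6 in the peripheral stalk, had 692 pooled, 496 in replicate 1 and 201 in replicate 2, 29 bp upstream of its TSS. ATPsynF (FBgn0035032), a subunit of the membrane part, had 587, 460.2 and 123, with its own TSS 78 bp from the summit and that of CG3548 nearer, at 48 bp. The rotor and catalytic genes ATPsyngamma and ATPsynbeta had 271 (191 and 68.3) and 201 (145 and 51.2). ATPsynbeta is on chromosome 4, and its TSS lay 58 bp from the summit, against 49 bp for that of CG11076. ATPsynE had 200.5 (144 and 75.0), and ATPsynD had 173 (106 and 67.2) from a summit 672 bp upstream that lay 58 bp from the TSS of cdi.

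**Figure D3:**
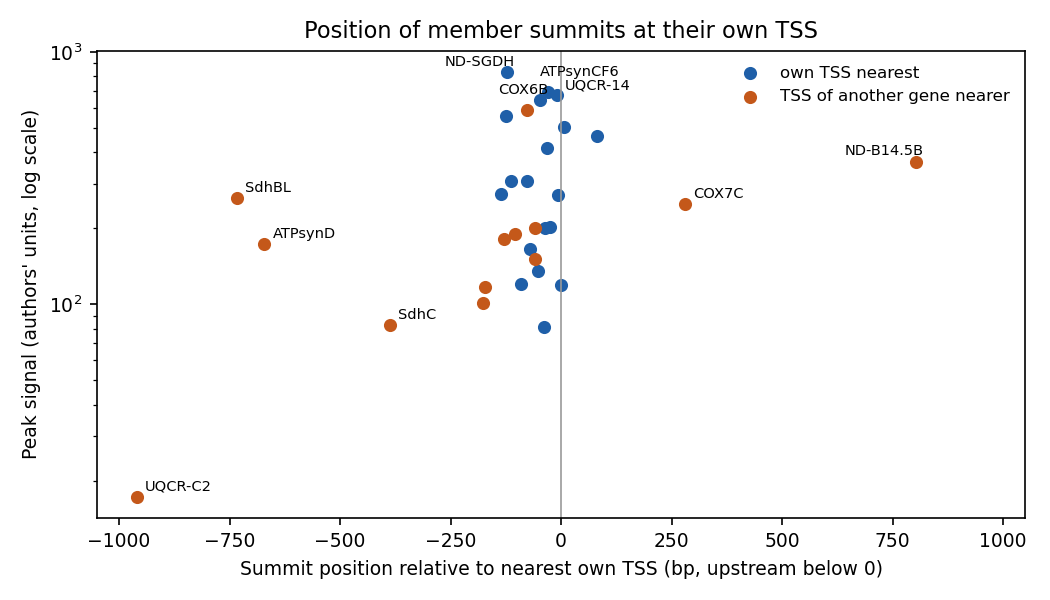
Pooled signal of the strongest summit of each of the 32 members with one (vertical axis, authors' units, log scale) against its position relative to the nearest own TSS in bp (horizontal axis, upstream below 0). Blue points have the own TSS nearest and orange points the TSS of another gene. The median distance was 80 bp, and the points beyond 250 bp, from COX7C at 281 bp to UQCR-C2 at 960 bp, are all orange.

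In position the members resembled the other genes with a summit. The median distance from summit to own TSS was 80 bp at the 32 members, against 87 bp at all 3800 genes with a summit, and 28 members (87.5%) had it upstream, against 83.2%. The own TSS was the nearest at 19 members (59.4%), against 65.8% of all genes with a summit. The members' median signal was 226 and their median rank percentile within the list 68.6, against 195 and 63.9 for all genes with a summit. The 32 members had 32 different peaks, and 4 members had more than 1 summit.

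The replicates differed in how the member peaks stood among the rest. In replicate 1 the members had a median signal of 157 (range 49.5 to 587), and 24 of 32 lay above the median of that replicate's list, which was 103. In replicate 2 they had a median of 71.6 (range 6.37 to 229.65), and 14 of 32 lay above the list median of 81.6. These values include unlisted peaks, because 31 had a listed counterpart in replicate 1 and 25 in replicate 2. By each replicate's own list, members with a summit had a median of 157 in replicate 1, against 139 for all genes with one. In replicate 2 it was 89.1, against 96.2. Of the 32 peaks, 24 overlapped a listed peak of both replicates (75.0%, against 62.0% of all genes with a summit), 7 of replicate 1 only and 1 of replicate 2 only. The replicate 1 list held 2858 peaks on the arms and the replicate 2 list 2129, and the depth of the libraries is unknown.

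**Figure D4:**
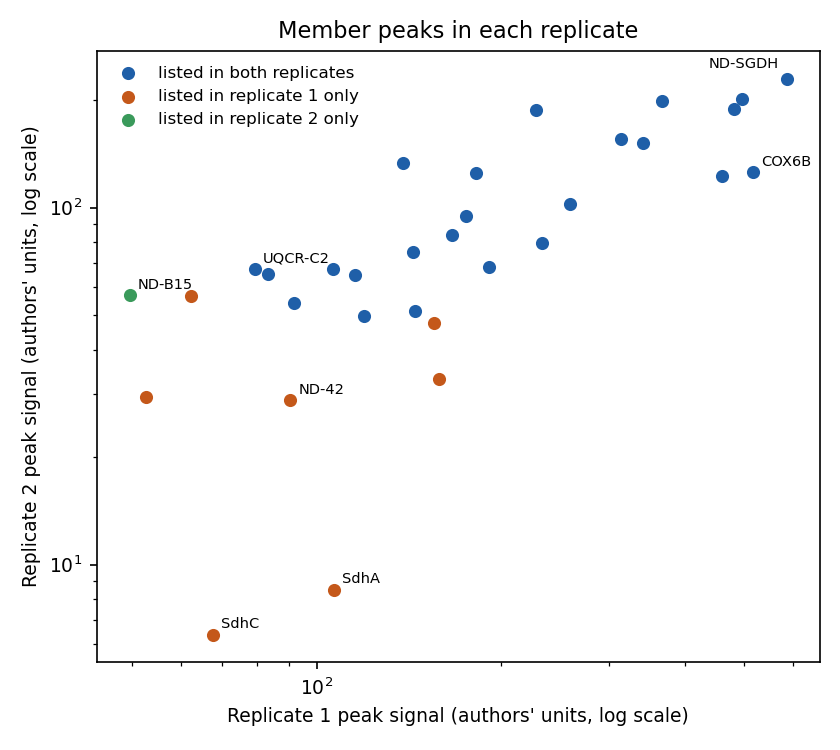
Signal in replicate 2 (vertical axis) against replicate 1 (horizontal axis) for the 32 member peaks, both in the authors' units on log scales. Colours show in which replicate's list an overlapping peak was found. ND-SGDH is highest in both, at 587 and 229.65, and SdhA and SdhC are lowest in replicate 2, at 8.52 and 6.37.

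The count of members stayed above the share of all genes for the main subunits under each rule and list tried, and below it for the paralogs. The smaller conservative list held 27 main subunits and 1 paralog, against 23.1% of all genes, and lost SdhA, SdhC, UQCR-C2 and ND-B18. Replicate 1's own list held 31 main subunits (25.4% of all genes), with ND-B22 in place of ND-B15, and replicate 2's own list held 25 (18.5% of all genes). Each of these 2 lists also held SdhBL. The upper 50% of peaks by signal held 24 main subunits and 1 paralog (18.0% of all genes), and peaks with the maximal score held 31 and 1 (24.6%). Within 500 bp of the TSS there were 29 main subunits and no paralog (24.7% of all genes), and within 100 bp 19 and none (16.0%). When the nearest TSS had to be the gene's own, 20 main subunits and no paralog remained in the count, against 19.1% of all genes. Counting summits in the gene or within 2 kb gave 37 and 3 (37.7%), and counting from the most upstream TSS gave 31 and 1 (26.2%). The paralogs in the wider count were SdhBL, COX5BL and COX7CL.

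Summits were found at main subunits on every arm. They numbered 4 of 12 on 2L, 5 of 11 on 2R, 6 of 13 on 3L, 8 of 13 on 3R, 1 of 2 on chromosome 4 and 7 of 12 on X. The lowest share, 33.3% on 2L, compares with 25.5% of all genes of that arm, and the highest, 61.5% on 3R, with 27.1%. On X the main subunits reached 58.3%, against 33.5% of all genes, the highest share of all genes on any arm. On 2R and 3L they reached 45.5% and 46.2%, against 26.4% and 25.1%. On chromosome 4 the share of all genes was 26.2%.

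The like-named paralogs were set beside their main genes. The 24 paralogs derive their names from 21 main genes. Of these main genes 12 had a summit, where 27.2% of all genes had one. The 12 included levy and cype, which do not follow the symbol rule. Those 12 genes account for 14 paralogs, and none of the 14 had a summit: ND-24L, ND-B14.5AL, SdhAL, SdhCL, UQCR-14L, COX4L, COX6AL, COX6AL2, COX6CL, COX7AL, COX7AL2, COX7CL, ATPsynCF6L and ATPsynbetaL. Another 9 paralogs had no summit and neither had their main gene. SdhBL was the reverse case, with a summit while SdhB had none.

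The summit at SdhBL (FBgn0030975) had a signal of 263 pooled, 139 in replicate 1 and 133 in replicate 2. It lay 734 bp upstream of the TSS of SdhBL and 76 bp from the TSS of Flacc, so the gene was not counted within 500 bp. The paralogs nearest to their main genes also had none of their own. The TSS of COX7AL is 2626 bp from that of COX7A, and the strongest ranked peak at COX7AL had 43.7 against 503 at COX7A. COX7CL, 867 bp from COX7C, had a ranked peak of 49.6 against 249.67 at COX7C. At COX5BL, 1631 bp from COX5B, the ranked peak had 31.3, against 58.1 at COX5B, which had no summit either.

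Paralogs and main subunits also differed in gene structure. The paralogs had a median length of 744 bp, the main subunits 1178 bp and all genes 2166 bp. A single annotated TSS was found at 21 of the 24 paralogs, 31 of 63 main subunits (49.2%) and 73.5% of all genes. Among genes with a single TSS, a summit was found at 0 of 21 paralogs, 13 of 31 main subunits (41.9%) and 23.1% of all genes. Among those with several TSS it was found at 1 of 3 paralogs, 18 of 32 main subunits (56.2%) and 38.6% of all genes. The part of gene structure in the difference was not otherwise tested. Taken by the letter, the rule of symbols ending in L gives 21 genes, 2 with a summit, because it includes ND-MNLL, a main subunit named after its residues, and leaves out the 4 symbols with L and a digit.

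The 32 main subunits without a listed summit mostly had weaker ranked peaks. At 30 of them a ranked peak lay within 1 kb, with a median score of 205.5, and ND-49 and ND-AGGG had none. The nearest to the threshold of 830 were COX5A (714), ND-B17.2 (687), SdhD (634), ND-B22 (602) and ND-13A (569), with signals of 57.7, 56.7, 62.9, 58.2 and 65.4. ND-B22 was listed in replicate 1.

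In complex I the signals of the ranked peaks ran from 30.7 at ND-B17 to 65.4 at ND-13A, below every complex I gene with a listed summit. The core subunit genes ND-20, ND-30, ND-75 and ND-51 had 34.8, 38.75, 48.7 and 50.8, of which ND-75 encodes the homolog of the iron-sulfur subunit NDUFS1 and ND-51 that of the flavoprotein NDUFV1. ND-B16.6, ND-39, ND-MWFE and ND-B14.7 had 31.6, 35.4, 46.5 and 47.3, and ND-PDSW, ND-B12, ND-B14, ND-ACP, the acyl carrier protein gene, and ND-18 had 55.5, 57.4, 60.5, 61.3 and 62.1. In complex II, SdhB, the gene of the iron-sulfur subunit, had 60.4. In complex III the signals were 24.0 at UQCR-11, 54.1 at UQCR-C1, the gene of the other core protein, 55.6 at UQCR-6.4 and 58.0 at UQCR-Q, of which each lies above the 17.3 of the listed peak at UQCR-C2. COX5B had 58.1. In complex V they were 33.3 at ATPsynG, 39.2 at ATPsyndelta, 43.4 at ATPsynO and 54.7 at ATPsynB, with a higher value only at ATPsynC, the gene of the membrane ring.

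The ranked peak at ATPsynC (FBgn0039830) had the maximal score of 1000 and a signal of 114, 17 bp from the TSS, but no overlapping entry in the thresholded list. The paralog COX7AL2 likewise had a ranked peak with a score of 1000 and a signal of 203, 579 bp upstream. The reason is not given in the sources used here, and both genes were counted as having no summit. The other paralogs without a summit had ranked peaks from 15.1 at ND-20L to 49.6 at COX7CL, and the median score over the 23 was 75.

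Words of DNA at the summits were examined next, with both strands searched, and a word was counted when all of its letters lay within 50 bp of the summit. TATCGA, which was capitalised in the printed promoters, was found there at 15 of 32 members (46.9%), against 49.1% of all genes with a summit. In windows centred 500 bp away on each side it lay in 0 of 64, against 3.53%. The full TATCGATA, which contains TATCGA, was found there at 9 members (28.1%), against 22.6%. TAATTA, the core site of Engrailed-class homeodomains, lay there at 2 members (6.25%), ND-24 and ND-MNLL, against 5.50%. For each word the members' share was thus close to that of all genes with a summit.

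Measured to the middle of the word, the nearest TATCGATA was 4 bp from the summit at COX7A, 5 bp at ND-15, 27 bp at COX4, 34 bp at SdhBL and 35 bp at ND-B14.5A. In 500 bp on either side it was found at 16 of the 32 members, with a median distance of 44.5 bp. The strongest peak, at ND-SGDH, had its nearest match 190 bp from the summit, and the printed promoter of ND-SGDH has none. COX6B and ATPsynF had the shorter TATCGA at the summit, while ATPsynCF6, COX7B and ND-24, also among the stronger peaks, had neither there.

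In the 250 bp upstream of the most upstream TSS, TATCGATA was found at 8 of the 31 main subunits with a summit (25.8%), at 0 of 32 without one and at 0 of 24 paralogs. Over all genes it was found at 23.2% of those with a summit and 2.32% of those without, 8.0% in all. GGTCACACT was found at 2 of 31 main subunits with a summit (6.45%), 5 of 32 without (15.6%) and 1 of 24 paralogs. The shares of all genes were 5.47% with a summit, 2.24% without and 3.12% in all. Of the 10 words searched, the E-box word CAGCTG was found at 13.8% of the members, against 13.4% of all genes. The other E-box word, CACGTG, was found at 3.45%, against 2.86%, the word GAGAGA of the GAGA factor at 5.75%, against 10.8%, and the Ets word CCGGAA at 3.45%, against 5.34%. TAATTA was found at 24.1% and TATCGA at 29.9% of the members, against 19.4% and 24.6% of all genes. The list also held the NRF-1 type word GCGCATGC and the nuclear respiratory gene (NRG) element, a palindrome described upstream of respiratory genes in insects. Neither of them was found at any of the 87 members in this window, against 0.889% and 0.158% of all genes.

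A wider window, 500 bp on either side of that TSS, was looked at after these values were known, and these words were singled out for what they showed there. TATCGATA was found at 13 of 31 main subunits with a summit (41.9%) and 0 of 32 without, against 34.0% and 4.16% of all genes. GGTCACACT was found at 4 of 31 main subunits with a summit (12.9%) and 13 of 32 without (40.6%), against 12.9% and 6.44% of all genes. The order of GGTCACACT was thus the opposite of that over all genes. The 13 included UQCR-Q, COX5A, COX5B, ATPsynC, ATPsynG, ND-ACP and ND-B17, whose match is in the printed promoter. Both words together were found only at ND-SGDH and COX4 among the main subunits, and neither word at 16 with a summit and 19 without. With 1000 bp on either side, TATCGATA was found at 16 of 31 (51.6%) and 0 of 32, against 38.7% and 6.09% of all genes. GGTCACACT was found there at 5 of 31 (16.1%) and 14 of 32 (43.8%), against 14.7% and 7.24%. The NRG element, not found in the 250 bp upstream, was found at 3 of the 87 members in 500 bp on either side (3.45%), against 0.602% of all genes. In 1000 bp it was found at 6 (6.90%), all main subunits, against 1.04%. GCGCATGC was found at 0 and 1 of the 87 in these windows, against 2.58% and 4.64% of all genes. The matches are descriptions of these windows and were not tested.

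**Figure D5:**
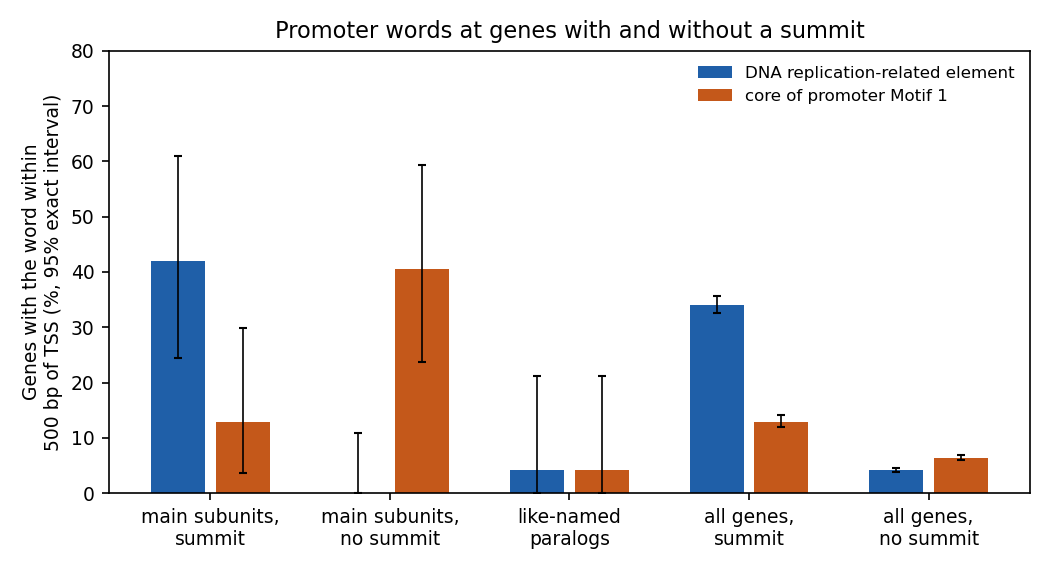
Share of genes, in percent (vertical axis), with TATCGATA (blue) or GGTCACACT (orange) within 500 bp of the most upstream TSS, for main subunits with and without a summit, paralogs, and all genes with and without a summit. Error lines are 95% exact binomial intervals that treat genes as separate draws. TATCGATA reached 41.9% at main subunits with a summit and GGTCACACT 40.6% at those without.

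Subunits and partners of the chain outside the symbol rule were described with the same count. Of 9 such genes 6 had a summit (66.7%, against 27.2% of all genes). Levy, the gene of subunit VIa of complex IV, had 1266, above every gene of the symbol rule, although the TSS of another gene was nearer to that summit. Cype, another complex IV subunit gene, had 228, blw, the gene of the alpha subunit of the ATP synthase, 213, Cyt-c1 180.4, Cyt-c-p, the main cytochrome c gene, 122, and RFeSP, the gene of the Rieske iron-sulfur protein, 74.3. Those at cype, Cyt-c1, Cyt-c-p and RFeSP had a listed counterpart in replicate 1 alone. The genes sun, ox and Cyt-c-d, a cytochrome c gene known for its role in the testis, had none.

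Citric acid cycle genes, which feed electrons to complexes I and II, had a summit in 8 of 11 cases (72.7%, against 27.2% of all genes). Scsalpha1, the gene of a succinyl-CoA ligase subunit, had the highest signal at 1062, followed by Idh3b at 572, Ogdh at 372, Fum1 at 309 and ScsbetaA at 292. Idh3a had 227, Mdh2 188 and mAcon1 89.0, and kdn, Idh3g and ScsbetaG had none. The own TSS was nearest at 5 of the 8, and the peak of Fum1 is the one counted for ND-ASHI as well.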

How the data were processed

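Peaks came from ChIP-seq of 2 biological replicates of inv-GFP embryos. Per the labels, the authors ranked peaks by IDR and thresholded them, on dm6, for each replicate and for both together. Which aligner and peak caller they used is not given in the sources used here. The deposited signal is a peak height relative to a control, on an unstated scale, and the deposited score is a rescaled IDR of at least 830 in the thresholded lists. Depth is unknown, and control libraries were not analysed here.

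The larger pooled list was used. Each gene of the Ensembl release 115 annotation took its strongest summit within 1 kb of an own TSS, and sequence came from Release 6. Members without one took the strongest ranked peak within 1 kb. A replicate signal is that of the strongest ranked peak overlapping the pooled peak. Gene groups were set side by side without tests. By rule, signals were given for up to 5 of the strongest and 2 of the weakest members with a summit in each complex, for paralogs with a summit, and for main subunits without one. COX7AL, COX7CL, COX5BL, COX7AL2 and ND-20L fall outside this rule and were chosen after their values were seen. Members and lists were chosen with earlier results of these data known. Python 3.11.15, numpy 2.4.6, pandas 2.3.3, scipy 1.17.1 and matplotlib 3.10.9 were used. The assignment was tested on simulated data. Alternatives were other lists, windows, TSS rules and words' windows.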

Additional observations from a re-analysis of the deposited data

How the results depend on the processing

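The causes of these changes were not tested, and the unknown depth limits what a missing peak can show. No paired analysis was possible because there was 1 group. The word windows of 500 and 1000 bp on either side were chosen after the data were seen. Within 100 bp of the TSS the counts were 19 members, 19 main subunits, 0 paralogs and 2233 of all genes, with 8 in complex I, 1 in II and 1 in III. With the own TSS nearest there were 20 members, 20 main subunits and 0 paralogs, with 1 in complex II, 1 in III and 3 in V. Paralogs numbered 0 within 500 bp and 3 in the gene or within 2 kb, where complex II had 5, and complex III had 1 within 500 bp. The conservative list and the upper 50% by signal each had 1 in complex II and 1 in III, and the upper 50% had 2504 of all genes. The median distance was 43.5 bp with the own TSS nearest, 109 bp from the most upstream TSS, and 67 to 75 bp without each replicate. The median percentile was 76.7 with the own TSS nearest, 50.1 in the upper 50% and 55.3 to 65.0 without each replicate. In the 100 bp upstream, members had CACGTG at 0.0%, TAATTA at 3.45%, TATCGA at 16.1% and TATCGATA at 3.45%. In 500 bp on either side CAGCTG was at 55.2%, CCGGAA 28.7%, GAGAGA 26.4%, GGTCACACT 20.7%, TAATTA 41.4% and TATCGA 52.9%. In 1000 bp they were at 73.6%, 50.6%, 37.9%, 23.0%, 65.5% and 70.1%, CACGTG at 14.9%, TATCGATA at 20.7% and the NRG element at 6.90%. A wider window has more room for a match, and the shares of all genes also rose with the window for each of the 10 words. In 500 and 1000 bp on either side the members lay above all genes for GGTCACACT and the NRG element. They lay below all genes for CACGTG and GAGAGA. The part of window length in the members' shares was not tested. The other 96 values stayed within 1.5 times the count, or within the spread between replicates or the 95% interval.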

Other observations

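Assembly factors, which build the complexes without being part of them, had a summit at 4 of the 12 genes matched, of 17 entries (33.3%, against 27.2% of all genes), 2 of them with the own TSS nearest. Ttc19, which acts on complex III, had 594, Cox17, a copper carrier for complex IV, 274, Cchl, a cytochrome c lyase gene, 117 at the peak it shares with ND-42, and Ccdc56 92.7. Surf1, Scox, Cox10, Cox11, Bcs1, Sdhaf3, Sdhaf4 (symbol Sirup) and CIA30 had none.

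Regulators of mitochondrial genes had a summit at 4 of 9 (44.4%, against 27.2% of all genes), 3 of them with the own TSS nearest. The mitochondrial single-stranded DNA-binding protein gene mtSSB had 1176, ewg, the fly homolog of nuclear respiratory factor NRF-1, 848, and Dref, the gene of the factor that binds TATCGATA, 278. The fourth, mtTFB1, had 92.7 from the same peak as Ccdc56, 644 bp from its TSS. No summit lay at srl, Ets97D, TFAM, mtTFB2 or PolrMT.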
